A study of Mus musculus with 4 samples.

Results

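The genes of neurotransmitter and amino acid transporters were followed in mouse brain 6 h after a stroke. They were taken as all genes whose symbol starts with Slc1a, Slc6a, Slc17a, Slc18a, Slc32a or Slc38a, with the brightest probe standing for each gene. Of 53 such symbols in the annotation, 48 were on the array, among 33269 features in all (16534 with a symbol). The others, Slc17a9, Slc38a6, Slc6a16, Slc6a19os and Slc6a21, were not found by symbol on the array and were not analysed here.

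All tissue came from male C57BL/6J mice of 9 weeks. The middle cerebral artery was blocked permanently with a filament passed up the vessel, and saline was injected into a brain ventricle straight afterwards. Pieces of the core, where blood flow falls furthest, and of the penumbra, the zone around it, were cut out at 6 h from mice with neurological grades G1 and G2. Each piece was paired with the corresponding healthy piece, which carried the same saline label; the hemisphere or animals that gave the healthy pieces are not given in the sources used here. The design speaks of 3 mice per group and does not say whether their RNA was pooled. Each region was measured on 2 two-color arrays with swapped dyes, so there were 4 arrays and 8 channels. Cy5 marked the ischemic RNA of replicates 1 (core) and 3 (penumbra), and Cy3 that of replicates 2 (core) and 4 (penumbra). Separate RNA extracts for the arrays of a pair are mentioned by no label. A swapped pair was therefore 1 replicate, and no p-value supports a call.

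Neurons release glutamate, GABA, glycine, acetylcholine and monoamines from vesicles that carriers of the SLC17, SLC18 and SLC32 families fill. After release, sodium-driven carriers of the SLC1 and SLC6 families in neurons and astrocytes take the transmitter back up, and SLC38 carriers move glutamine between the 2 cell types for its resynthesis. When blood supply fails, the ion gradients that drive uptake run down and glutamate builds up outside cells, which is why these carriers are studied in stroke.

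Calls rest on size. The main rule asked for a mean of 2-fold or more (1 log2 unit) and for 1.5-fold or more on each of the 2 arrays, both the same way. A smaller rule asked for a mean of 1.5-fold or more, with a lower minimum per array. Errors of ischemic over healthy ratios are the SD between the 2 arrays of a pair, which holds dye bias that cancels in the mean. For comparisons between regions the error is the SD between the 2 differences, each taken within 1 dye orientation or 1 dye. Values are log2 ratios relative to the bulk of all features. When ratios were instead set by spike-in transcripts, every ratio was lower by 0.48 in the core and by 0.46 in the penumbra, so positive ratios below that size turned negative, and negative ones moved further from 0. Of the 15 genes with more than 1 measured probe, the probes differed in sign in 8 in the core and 10 in the penumbra, as given beside the genes below where the gap matters. The median spot had a signal of 192 to 225.5 (Cy3) or 284 to 310 (Cy5) over a background of 64 to 66 or 70 to 71, and 76.1% to 79.4% of spots were well above background. All 9 pan-neuronal and all 11 astrocyte markers were well above background in every tissue. The core and penumbra pieces also differed in makeup. In healthy tissue the main rule called 9 of 11 striatal, 7 of 8 choroid plexus and 3 of 5 cholinergic markers lower in the core piece. Of all 24888 features it called 204 lower and 78 higher (1.13%). The smaller rule, which called 4.22% of features, called 6 of 8 oligodendrocyte markers lower. It called 6 of 10 meningeal markers higher, and of 12 cortical markers 3 higher and 1 lower. Of pan-neuronal markers 8 of 9 were above 0, with 0 called.

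Of the 48 genes, 36 were well above background in all 8 channels, 4 in some (Slc18a1, Slc38a8, Slc6a18 and Slc6a20b) and 8 in 0. Those 8 included Slc6a4 and Slc6a2, the plasma membrane carriers of serotonin and noradrenaline, whose transcripts are made in brainstem nuclei, and Slc6a5, a glycine carrier of brainstem and spinal cord. The others were Slc1a7, a glutamate carrier best known from retina, Slc6a19, an amino acid carrier of gut and kidney, and Slc17a1, Slc17a3 and Slc17a4, known from kidney and gut. For Slc18a1, a vesicular monoamine carrier well above background in penumbra only, the healthy penumbra piece was at least 1.09-fold higher than the healthy core piece. The bounds for the partly detected genes ran from 1.07-fold to 1.14-fold. Slc38a8, Slc6a18 and Slc6a20b were well above background on only 1 array of the brighter piece and were measured in no comparison. The brighter piece was the core for Slc6a18 and the penumbra for the others. Healthy core minus healthy penumbra was 0.46 in Cy3 and -0.05 in Cy5 for Slc6a18, so its dyes differed in sign. None of the 48 was saturated.

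In the core at 6 h of ischemia, transporter transcripts stayed close to their healthy level relative to the bulk of all features. Of 36 measured genes, 0 were called in either direction, by the main rule or the smaller one, where 0.31% and 1.23% of all 24527 measured features were called. The median ratio was -0.07, against -0.01 over all features, with a range from -0.26 to 0.39. Every gene lay within 0.5 log2 of 0, as did 98.1% of all features. In 22 of 36 genes the SD exceeded the mean. By sign alone, 10 means were above 0 and 26 below, and 14 genes (38.9%) were below 0 on both core arrays against 28.1% of all features. With spike-in scaling 0 of 36 means were above 0, and the median was -0.55 against -0.48 over all features.

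In the penumbra, 0 of 37 measured genes were called by either rule, where 0.245% and 1.34% of all 24924 features were. The median was 0.02 against -0.01 over all features, and the range ran from -0.36 to 0.52. In 18 of 37 genes the mean was smaller than the SD. Means above 0 numbered 20 and means below 0 numbered 17, but 15 and 22 when arrays were only median-centred, and 1 and 36 with spike-in scaling. Over both regions, 4 of 36 genes were above 0 on all 4 arrays (Slc1a4, Slc38a5, Slc6a12 and Slc6a9), or 11.1%, against 17.9% of all features. On all 4 arrays 8 were below 0, among them Slc17a5, Slc17a7, Slc1a1, Slc1a5, Slc38a3, Slc38a7 and Slc6a8, or 22.2% against 17.5%.

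**Figure D1:**
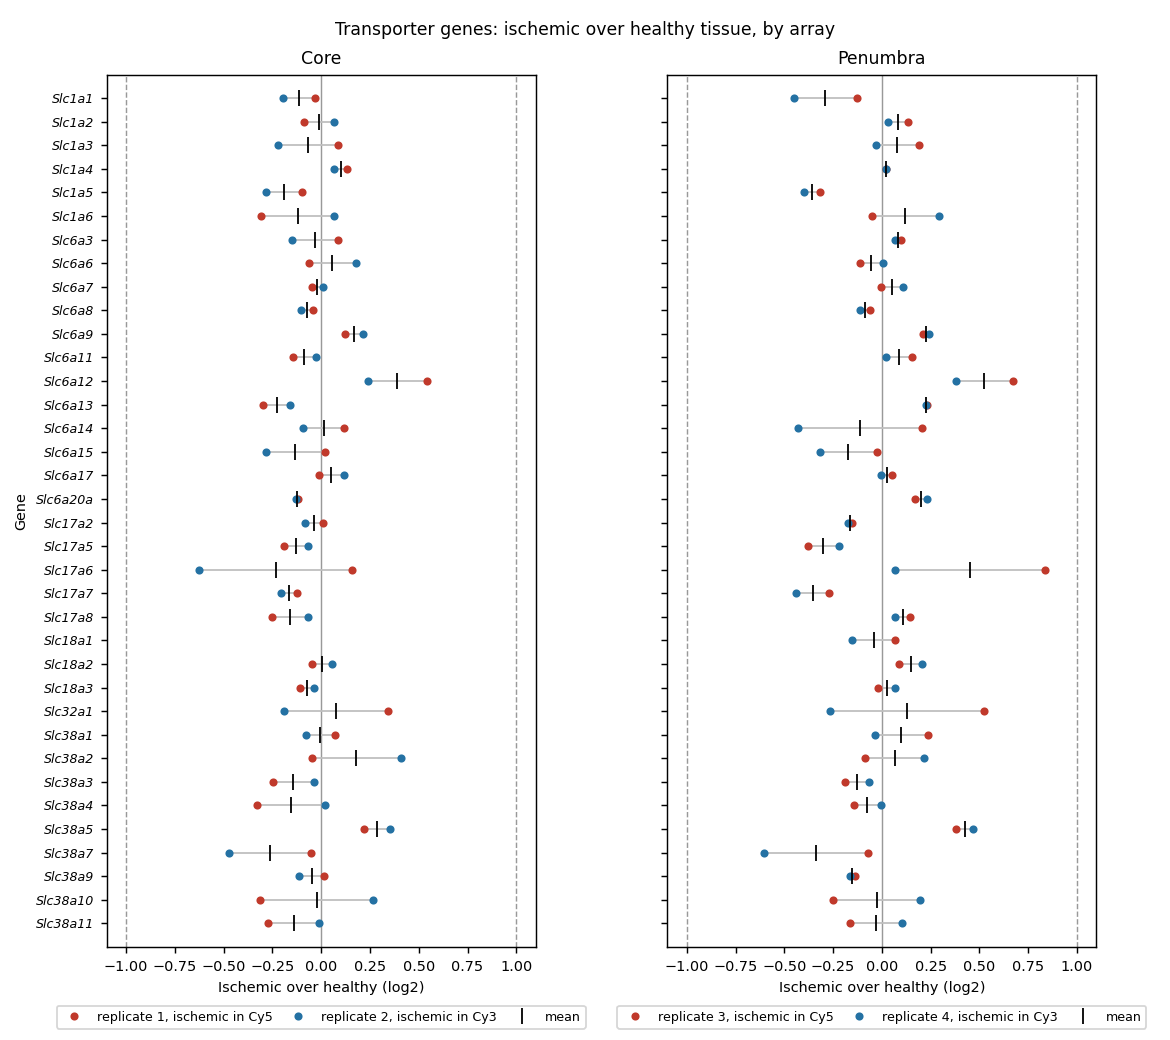
Log2 ratio of ischemic over healthy tissue for the transporter genes reported (rows) in core and penumbra. Points are single arrays, colored by the dye that held ischemic RNA, ticks are their means, and dashed lines mark the 2-fold threshold; no mean reaches it, and Slc17a6 and Slc32a1 show wide gaps between arrays.

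The SLC1 family, which holds the plasma membrane glutamate carriers and 2 neutral amino acid carriers, had medians of -0.09 (core) and 0.05 (penumbra) over 6 measured genes. Slc1a2 encodes GLT-1, the main astrocytic glutamate carrier of forebrain. Its ratios were -0.09 and 0.06 on core replicates 1 and 2, and 0.14 and 0.03 on penumbra replicates 3 and 4, so the core arrays straddled 0 and no ratio was larger than 0.14. Slc1a3, the other astrocytic carrier (GLAST), had 0.09 and -0.22 in the core and 0.19 and -0.03 in the penumbra, and in each region the arrays fell on both sides of 0. The brightest probe of Slc1a1, the neuronal carrier EAAC1, was below 0 on all 4 arrays, at -0.03 and -0.20 in the core and -0.13 and -0.45 in the penumbra. Its penumbra mean was -0.29 ± 0.23. The other probe of Slc1a1 had means above 0 in both regions, 0.08 and 0.10, so the sign rests on the probe chosen.

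The remaining SLC1 genes carry neutral amino acids or are rare in forebrain. Slc1a5, a neutral amino acid exchanger that takes glutamine, had the lowest penumbra mean of all members, -0.36 ± 0.06, with -0.32 and -0.40 on the 2 arrays, and -0.19 ± 0.13 in the core. Slc1a4, a carrier of alanine, serine and cysteine, had a core mean of 0.10 ± 0.05 and a penumbra mean of 0.02 ± 0.00. Slc1a6, a glutamate carrier best known from cerebellar Purkinje cells, had -0.31 and 0.07 in the core and -0.05 and 0.29 in the penumbra.

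No carrier of GABA described here was called in either region. Slc6a11, an astrocytic GABA carrier, had -0.15 and -0.03 in the core and 0.15 and 0.02 in the penumbra, while its other probe had means of 0.11 and -0.07, the opposite order. Slc6a12 and Slc6a13 encode carriers of GABA with betaine (BGT-1) and of GABA with taurine (GAT-2). They are known mainly from the meninges and vessels of the brain and from liver and kidney, and in assembly GRCm38.p6 they are adjacent genes on chromosome 6.

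The 250 bases before the annotated start of both genes are shown because they are neighbours whose ratios parted in the core. RefSeq sequence of GRCm38.p6 is used, written 5′ to 3′. Capitals mark GGGCGG, the GC box, and TGGAAA, the core letters of the tonicity element, searched on both strands after the sequences had been seen. No matches overlapped in the sequences printed. Of 32851 mouse promoter stretches of this length, 32.7% hold the first motif and 18.6% the second; a match here is a description of letters only.
Slc6a12, chr6:121342324-121342573, + strand: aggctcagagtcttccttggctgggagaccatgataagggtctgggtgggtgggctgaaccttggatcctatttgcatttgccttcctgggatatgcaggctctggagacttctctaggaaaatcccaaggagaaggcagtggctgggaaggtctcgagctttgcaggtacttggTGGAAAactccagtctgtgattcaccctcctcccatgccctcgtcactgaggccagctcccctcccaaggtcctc
Slc6a13, chr6:121300038-121300287, + strand: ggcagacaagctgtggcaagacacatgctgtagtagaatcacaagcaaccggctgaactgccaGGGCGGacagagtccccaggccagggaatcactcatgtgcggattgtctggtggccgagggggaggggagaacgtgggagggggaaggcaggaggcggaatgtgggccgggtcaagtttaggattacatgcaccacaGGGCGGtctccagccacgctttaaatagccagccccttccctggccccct

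Slc6a12, also an osmolyte carrier that responds to hypertonic stress in kidney, had the highest mean of all members in both regions. Its ratios were 0.54 and 0.24 in the core and 0.67 and 0.38 in the penumbra, so all 4 arrays were above 0. The means of 0.39 ± 0.21 and 0.52 ± 0.21 missed the smaller rule, and with spike-in scaling they were -0.08 and 0.06. With Agilent's processed signals, which add no offset to dim spots, the penumbra mean was 0.73. Its neighbour Slc6a13 had -0.30 and -0.16 in the core but 0.23 and 0.23 in the penumbra. Both core arrays were below both penumbra arrays.

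Among other SLC6 genes, Slc6a9, the glycine carrier GlyT1 of astrocytes, was above 0 on all 4 arrays: 0.12 and 0.21 in the core and 0.21 and 0.24 in the penumbra. The core mean was 0.17 ± 0.06 and the penumbra mean 0.22 ± 0.02, and with spike-in scaling they were -0.31 and -0.24. Slc6a20a, a carrier of proline and other imino acids, had -0.12 and -0.13 in the core and 0.17 and 0.23 in the penumbra. Slc6a6, the taurine carrier, had 0.06 ± 0.17 and -0.05 ± 0.08. Slc6a8, the creatine carrier, had -0.07 ± 0.05 and -0.09 ± 0.04. The proline carrier Slc6a7, the dopamine carrier Slc6a3 and the vesicular amino acid carrier Slc6a17 had core means from -0.03 to 0.05. Slc6a15, a neuronal carrier of branched-chain amino acids, had -0.13 ± 0.22 and -0.17 ± 0.21. Slc6a14, a broad carrier of neutral and basic amino acids, had penumbra arrays at 0.20 and -0.43, which do not share a sign.

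The SLC17 family holds the vesicular glutamate carriers Slc17a6, Slc17a7 and Slc17a8 beside carriers of other anions. In the core the brightest probes of 5 of 5 measured genes were below 0, with a median of -0.16 and 0 called. Slc17a7, VGLUT1 of cortical and hippocampal excitatory neurons, was below 0 on every array, at -0.13 and -0.21 in the core (-0.17 ± 0.06) and -0.27 and -0.44 in the penumbra (-0.35 ± 0.12). Penumbra arrays were lower than core arrays. Slc17a5, the lysosomal and vesicular carrier sialin, had the same order, with -0.13 ± 0.09 in the core and -0.30 ± 0.11 in the penumbra. Slc17a8, VGLUT3 of scattered cholinergic, serotonergic and GABA neurons, had -0.25 and -0.07 in the core and 0.15 and 0.07 in the penumbra, but its other probe had means of 0.06 and -0.12, the opposite order. Slc17a2, a sodium phosphate cotransporter homologue, had -0.04 ± 0.06 and -0.16 ± 0.01.

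Slc17a6, VGLUT2 of thalamic, hypothalamic and brainstem excitatory neurons, had ratios of 0.16 and -0.63 in the core and 0.84 and 0.07 in the penumbra. The means were -0.23 ± 0.56 and 0.45 ± 0.55, and neither rule called them. The arrays with ischemic RNA in Cy5 were higher by a similar amount in both regions. Both SDs exceed the means, but they hold this dye gap, which cancels in the mean, so they do not measure the error of the means. With spike-in scaling the penumbra mean was -0.01. Its promoter stretch is printed because it was the gene called between healthy pieces and the lowest in the difference between regions, with the same motifs in capitals.
Slc17a6, chr7:51621580-51621829, + strand: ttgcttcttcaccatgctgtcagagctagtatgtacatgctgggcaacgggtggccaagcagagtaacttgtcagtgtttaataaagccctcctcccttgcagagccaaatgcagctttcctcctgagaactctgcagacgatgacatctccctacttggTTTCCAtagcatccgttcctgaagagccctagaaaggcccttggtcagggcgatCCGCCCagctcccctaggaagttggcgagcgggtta

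For the other vesicular carriers, of the SLC18 and SLC32 families, means of the brightest probes ran from -0.07 to 0.15, while single arrays of Slc32a1 lay further from 0. Slc32a1, VGAT, which fills vesicles with GABA and glycine, had 0.34 and -0.19 in the core and 0.53 and -0.26 in the penumbra, so the dyes disagreed in sign in both regions. Slc18a2, the vesicular monoamine carrier VMAT2, had 0.01 ± 0.07 and 0.15 ± 0.08, but its other probe had -0.17 in the penumbra. Slc18a3, the vesicular acetylcholine carrier, had -0.07 ± 0.05 and 0.03 ± 0.06.

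Glutamine and neutral amino acid carriers of the SLC38 family had medians of -0.05 in the core and -0.03 in the penumbra over 9 measured genes. Slc38a5, the glutamine carrier SNAT5, stood highest in the family, with 0.22 and 0.35 in the core (0.29 ± 0.09) and 0.38 and 0.47 in the penumbra (0.42 ± 0.06). All 4 arrays were above 0 and both penumbra arrays were above both core arrays, but with spike-in scaling the means were -0.19 and -0.04. Its promoter stretch holds 1 GC box.
Slc38a5, chrX:8271131-8271380, + strand: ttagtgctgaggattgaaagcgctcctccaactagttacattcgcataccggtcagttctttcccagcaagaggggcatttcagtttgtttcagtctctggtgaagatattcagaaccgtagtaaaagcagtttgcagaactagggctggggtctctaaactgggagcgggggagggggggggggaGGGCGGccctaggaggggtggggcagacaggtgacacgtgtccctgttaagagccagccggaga
Slc38a2, SNAT2, which cells induce when amino acids run short, had -0.05 and 0.41 in the core and -0.08 and 0.22 in the penumbra, with the dyes on both sides of 0; its other probe had means of 0.33 and 0.43. Slc38a1, the neuronal glutamine carrier SNAT1, had -0.01 ± 0.11 and 0.10 ± 0.19. Slc38a3, the astrocytic glutamine carrier SNAT3, had -0.14 ± 0.15 and -0.13 ± 0.09. Slc38a7, a lysosomal glutamine carrier, had the lowest core mean of all members, -0.26 ± 0.30, and -0.34 ± 0.38 in the penumbra, set largely by the arrays with ischemic RNA in Cy3, at -0.47 and -0.61. Slc38a9, the lysosomal arginine sensor, had -0.05 ± 0.09 and -0.15 ± 0.02, and its other probe had 0.11 and 0.20, so its probes differ in sign. Slc38a4, a system A amino acid carrier, had -0.15 ± 0.25 and -0.08 ± 0.10. For Slc38a10 and Slc38a11 the SD exceeded the mean in both regions.

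Whether the response to ischemia differed between regions was asked by subtracting the penumbra ratio from the core ratio. By the main rule and by the smaller one 0 of 36 genes were called, with both core arrays required to lie above, or both below, the pair of penumbra arrays, where 0.062% and 0.438% of 24193 features were called. The median difference was -0.06 against 0.01 over all features, and the range was -0.69 to 0.19. Slc17a6 had the lowest difference, -0.69. Its core replicate 1, at 0.16, was above its penumbra replicate 4, at 0.07, so it missed the rule on array order. Taken within a dye orientation, however, its differences were -0.68 and -0.69. A version of the rule that compares arrays within dye orientation, chosen after seeing the data, called Slc17a6 lower by the smaller rule and 0 genes by the main one; the shares of all features called were again 0.438% and 0.062%. Leaving out core replicate 1 or penumbra replicate 4 gave -1.08 and -1.07, and leaving out core replicate 2 or penumbra replicate 3 gave -0.29 and -0.30. With 1 array of a swapped pair left out, dye bias no longer cancels in these 4 values.

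Markers of thalamus and hypothalamus were measured in the same pieces. Over 11 markers their summed signal was 4827 to 5133 in healthy core, 4706 to 4863 in ischemic core, 4713 to 4999 in healthy penumbra and 7959 to 8039 in ischemic penumbra. In the penumbra 10 of 11 had a mean above 0, with a list median of 0.17. The main rule called 1 higher, where it called 0.245% of all features. In ischemic core Lhx9 was not well above background. The part of these cells in the Slc17a6 values was not tested. In bulk tissue, fewer cells of a type and less RNA per cell cannot be told apart.

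After Slc17a6, the lowest differences were those of Slc6a13, at -0.46 ± 0.10, and Slc6a20a, at -0.33 ± 0.05. For both, both core arrays were below 0 and both penumbra arrays above 0. Slc6a13 was -0.53 and -0.38 within the dye orientations, and Slc6a20a was -0.29 and -0.36. The brightest probes of Slc17a8 and Slc6a11 had the same order of signs, with -0.27 ± 0.19 and -0.18 ± 0.18, but the other probe of each gave the opposite order. At the other end Slc17a7 had 0.19 ± 0.06 and the brightest probe of Slc1a1 0.18 ± 0.11. The other probe of Slc1a1 had means of 0.08 in the core and 0.10 in the penumbra, so it did not share this order.

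In ratios of ischemic over healthy tissue, medians of meningeal and choroid plexus markers followed the same order of regions as Slc6a13. Between healthy pieces choroid plexus markers had a median of -3.34, while Slc6a13 had 0.86. In the penumbra 10 of 10 meningeal fibroblast markers had a mean above 0, with a median of 0.46, and 8 of 8 choroid plexus markers, with a median of 0.58. In the core their medians were -0.07 and -0.05. The summed meningeal signal was 18730 to 19388 in healthy core, 16923 to 17561 in ischemic core, 14269 to 14392 in healthy penumbra and 19931 to 20402 in ischemic penumbra. The choroid sum was 1804 to 1822 and 1675 to 1756 in healthy and ischemic core, and 22389 to 23833 and 35128 to 37783 in healthy and ischemic penumbra, with Otx2 not well above background in either core piece. Their part in the Slc6a13 and Slc6a20a values was not tested.

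**Figure D2:**
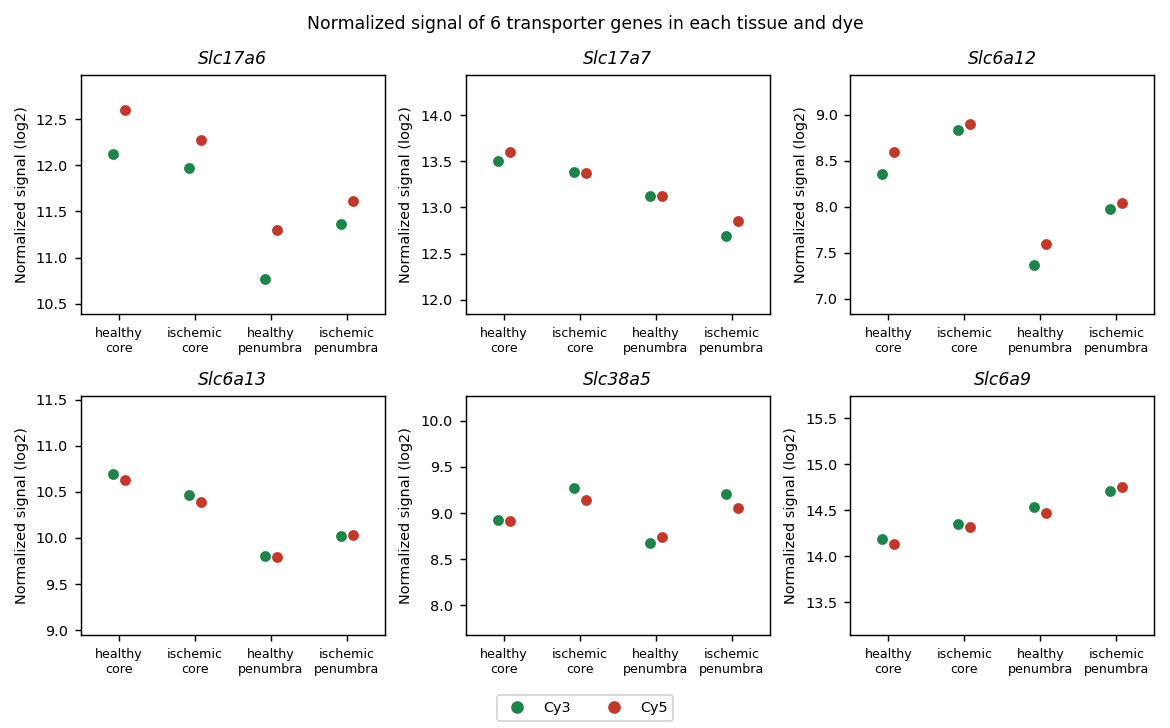
Normalized single-channel log2 signal of 6 transporter genes in the 4 tissues, with each point 1 channel colored by dye and every panel spanning the same log2 range. Slc17a6 is highest in healthy core and lowest in healthy penumbra in each dye, and signals of different genes are not comparable.

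How the pieces differed before ischemia was asked by setting healthy core against healthy penumbra within each dye. Of 37 measured genes, Slc17a6 was called higher in the core piece and 0 were called lower, or 2.70% called against 1.13% of 24888 features. By the smaller rule 4 were higher (10.8%) and 0 lower, against 4.22% of features. The median was 0.09 against 0.01 over all features, and the range was -0.42 to 1.33. Slc17a6 had log2 signals of 12.12 in Cy3 and 12.60 in Cy5 in healthy core, and 10.77 and 11.30 in healthy penumbra. The difference of 1.33 ± 0.03 (2.51-fold) was larger than the gap between dyes, and its other probe gave 1.23. Markers of thalamus and hypothalamus had a median of 0.12 in the same comparison. Of these, 6 of 11 were above 0 and 0 were called by either rule.

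The GABA and osmolyte carriers of meninges and vessels were also higher in the healthy core piece by the smaller rule. Slc6a12 had 8.36 and 8.60 in healthy core against 7.37 and 7.59 in healthy penumbra. Its difference of 0.997 ± 0.01 (2.00-fold) lay just under the main threshold, and with Agilent's processed signals it was 1.40 and called. Slc6a13 had 10.69 and 10.62 against 9.81 and 9.80, a difference of 0.86 ± 0.04 (1.81-fold). Its other probe gave 1.03. The median of meningeal fibroblast markers was 0.65 here, while endothelial markers had 0.10 and 0 of 9 called. Of 10 meningeal markers the main rule called 1 higher and the smaller rule 6, against 1.13% and 4.22% of all features called. The part of meningeal tissue in the values of Slc6a12 and Slc6a13 was not tested.

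In the SLC17 family the brightest probes of 4 of 5 measured genes were above 0 in this comparison, with a median of 0.43, the value of the sialin gene Slc17a5. Slc17a7 had 13.50 and 13.60 in healthy core against 13.13 and 13.12 in healthy penumbra, a difference of 0.42 ± 0.07 that neither rule called. Slc17a8 was called higher by the smaller rule at 0.86 ± 0.08, but its other probe gave -0.71, and the mean over probes was 0.07. The probes of Slc17a8 therefore do not give this gene a direction. Slc1a6 had 0.40 ± 0.06. For cortical markers the median was 0.46. Of 12, the main rule called 2 higher and 1 lower, against 1.13% of all features called.

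The vesicular carriers Slc32a1 (GABA and glycine) and Slc18a3 (acetylcholine) were below 0 between healthy pieces, as were Slc6a9, Slc38a10 and Slc6a6. Neither rule called them. Slc32a1 had the lowest difference, -0.42 ± 0.20, with -0.28 in Cy3 and -0.56 in Cy5. Slc6a9 had 14.19 and 14.14 in healthy core against 14.54 and 14.47 in healthy penumbra, a difference of -0.34 ± 0.01. Slc38a10, an orphan carrier, had -0.32 ± 0.01, but its other probe gave -0.03. Slc6a6 had -0.29 ± 0.11. Slc18a3, at -0.28 ± 0.02, is a dim probe: with processed signals, which carry no offset, its difference was -1.0 and it was called lower. Cholinergic markers had a median of -1.72 and striatal markers of -1.78 in the same comparison, and all markers of both lists were below 0. Markers of GABAergic interneurons had a median of 0.11, with 6 of 9 above 0. All 3 SLC18 genes were below 0, with a median of -0.16.

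Between ischemic core and ischemic penumbra, 0 of 37 genes were called by the main rule, against 1.36% of 24870 features. By the smaller rule 5 were higher in the core piece (13.5%) and 0 lower, against 5.19% of features. These were Slc6a12 at 0.86 ± 0.00, Slc17a6 at 0.64 ± 0.04, Slc17a7 at 0.61 ± 0.13, Slc17a5 at 0.60 ± 0.09 and Slc17a8 at 0.59 ± 0.11, the last with a mean over probes of 0.03. Slc6a12 stayed past the smaller rule's mean of 1.5-fold under each alternative run. The others did not: Slc17a6 was 0.55 with processed signals and with a mean over probes, Slc17a5 was 0.54 without core replicate 1 or penumbra replicate 3, and Slc17a7 and Slc17a8 were 0.52 and 0.51 without core replicate 2 or penumbra replicate 4. Slc6a13, at 0.40 ± 0.06, was no longer among them. The difference of Slc17a6 was 0.64 in ischemic pieces against 1.33 in healthy ones, and its log2 signals were 12.28 and 11.97 in ischemic core and 11.61 and 11.36 in ischemic penumbra. The lowest were Slc32a1 at -0.47 ± 0.01, Slc6a9 at -0.40 ± 0.05 and Slc18a3 at -0.38 ± 0.03. The 2 comparisons of pieces and the 2 comparisons with ischemia use the same channels, so they are not independent of each other.

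**Figure D3:**
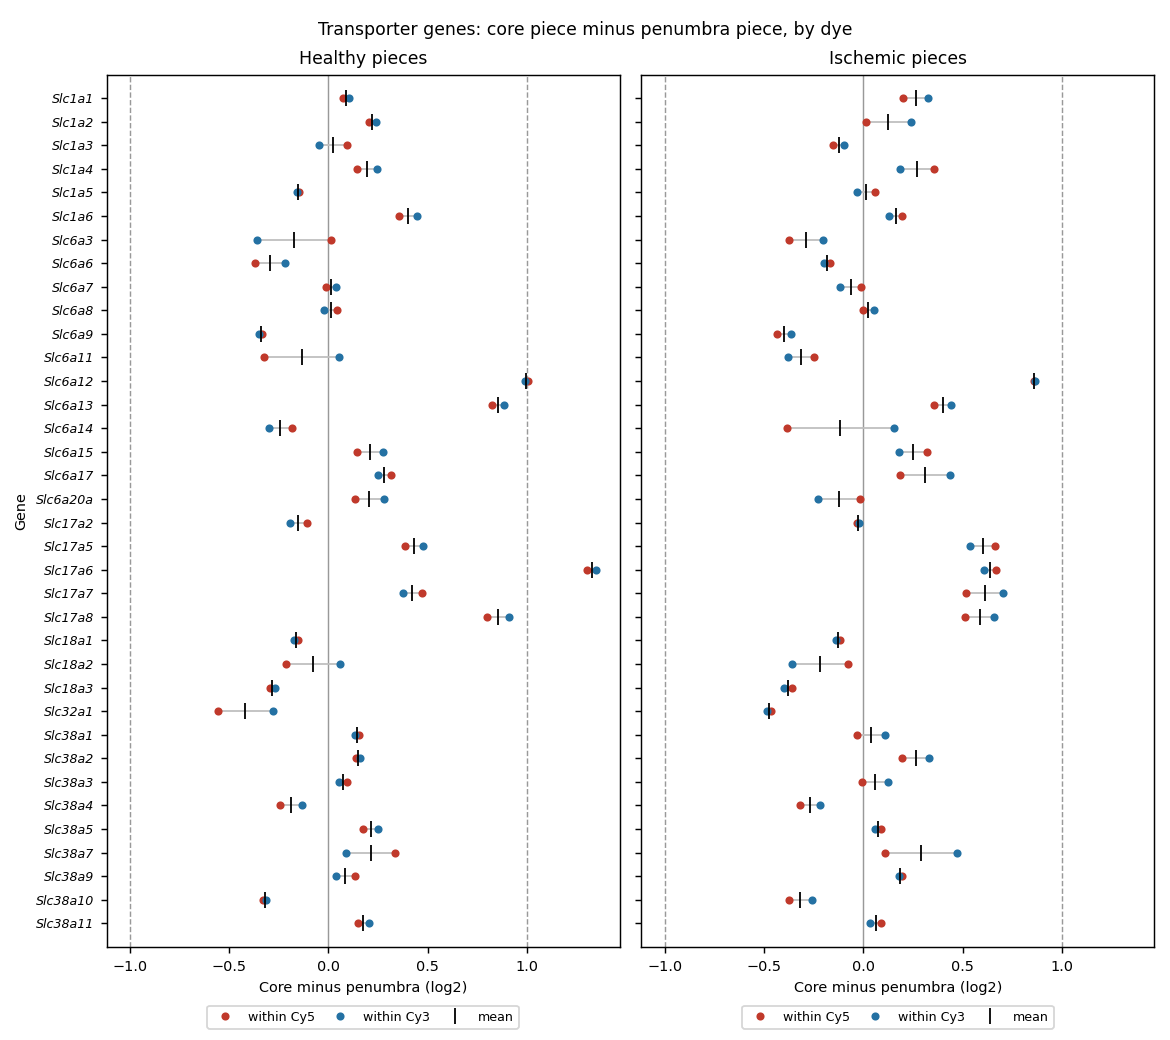
Log2 difference of core piece minus penumbra piece for the transporter genes reported (rows), in healthy and in ischemic tissue. Points are the 2 dyes, ticks are their means and dashed lines mark 2-fold; in healthy pieces Slc17a6 passes the line and Slc6a12 lies at it.

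Enzymes and pumps that serve these carriers were measured on the same arrays. Glutamate and GABA metabolism, from glutamine synthetase to the GABA-forming decarboxylases, had medians of -0.06 in the core and -0.05 in the penumbra, with 0 of 10 measured genes called by either rule in each region. Its 2 brightest genes were Glul, glutamine synthetase, at -0.11 ± 0.69 and 0.06 ± 0.71, and Gad1, a GABA-forming enzyme, at -0.08 ± 0.28 and -0.01 ± 0.32, with SDs larger than the means. The vesicular proton pump, whose gradient drives vesicle filling, had 0 of 13 called and 2 of 13 means above 0 in each region, with medians of -0.05 and -0.10. Other amino acid carriers and chloride cotransporters had 0 of 18 called. Among them Slc7a11, the cystine and glutamate exchanger, had a core mean of 0.14 ± 0.09 and a penumbra mean of 0.44 ± 0.02, and was picked after its values were seen.

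The amino acid response, which cells run through the factor ATF4 when amino acids are short or proteins misfold, was above 0 in 14 of 16 genes in each region, with medians of 0.20 and 0.21 against -0.01 over all features. By the main rule 0 of 16 were called. By the smaller rule Chac1, which degrades glutathione, was higher in the core at 0.84 ± 0.28, as was Trib3, a pseudokinase that feeds back on ATF4, at 0.68 ± 0.20. Stc2, a secreted stress protein, was higher in the penumbra at 0.75 ± 0.18. That is 2 of 16 called in the core and 1 of 16 in the penumbra, where the smaller rule called 1.23% and 1.34% of all features. Both medians are smaller than the spike-in shift.

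Enzymes of monoamine and acetylcholine synthesis had 0 of 11 called in either ischemic comparison. Between healthy pieces their median was -0.28. Of 11 the main rule called 1 and the smaller rule 3, against 1.13% and 4.22% of all features. Slc5a7, the choline carrier of cholinergic terminals, was called lower in the core piece at -2.11 ± 0.13, and the smaller rule added Th, tyrosine hydroxylase, at -0.94 ± 0.04 and Ddc, the decarboxylase that completes dopamine and serotonin synthesis, at -0.68 ± 0.05. The smaller rule also called Slc12a2, the chloride importer NKCC1, lower in the core piece at -0.68 ± 0.18.

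**Figure D4:**
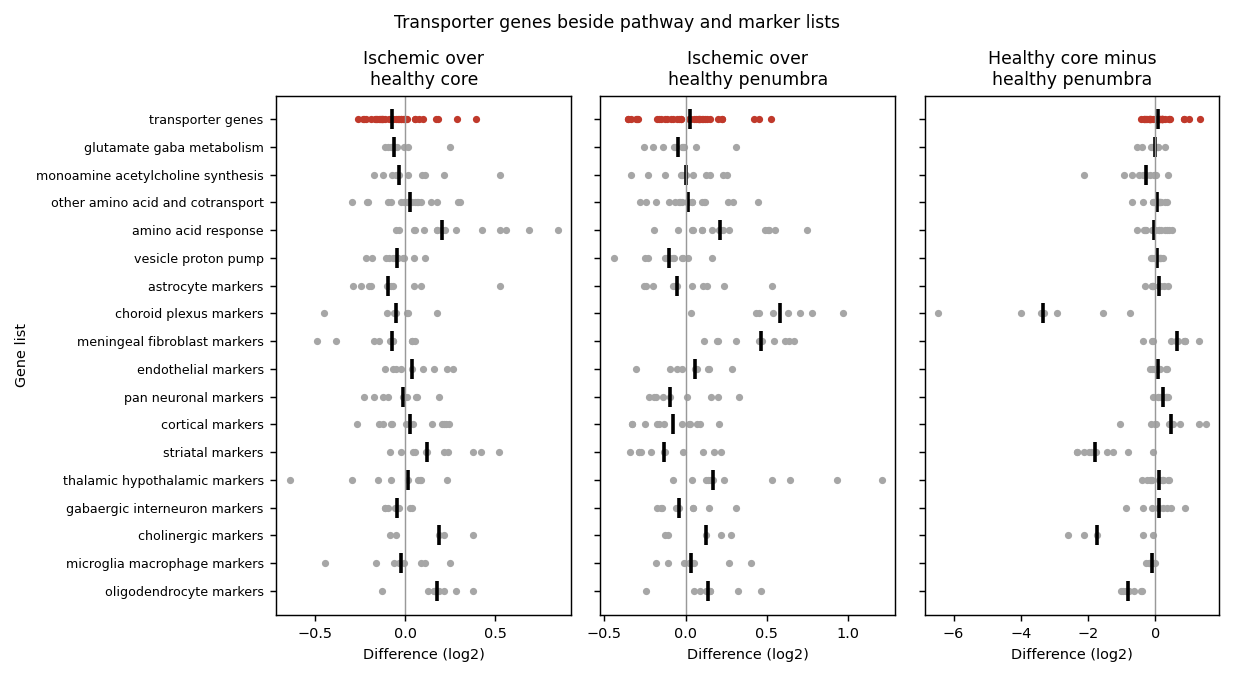
Log2 differences of the transporter genes (red) beside pathway and marker lists (grey), with 1 point per gene and a tick at each list's median; the x axes differ in range. The transporter medians of -0.07, 0.02 and 0.09 lie near 0, while choroid plexus, striatal and cholinergic markers lie far below 0 between healthy pieces.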

How the data were processed

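The scanner files, as deposited, give spot intensity in Cy3 and Cy5, as Agilent Feature Extraction wrote it (version 11.0.1.1, named by the submitters' processing notes and per the file headers). Log10 ratios filled the deposited series table; 100% of its spots lay within 0.0001 of the log10 of processed Cy5 over processed Cy3 signal, and its column medians, for replicates 1 to 4, were -0.0215, 0.00516, -0.0199 and -0.0115. Its scale and direction are thereby known, its values are uncentred as deposited by the authors, and it was not used further.

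Median spot signals (mean signals are not used here, as no such column was among the data) were corrected with normexp (offset 50), normalized by loess within arrays and, for single channels, by Aquantile, in limma 3.58.1 and R 4.3.3, with control and outlier spots at weight 0. Tables were handled with numpy 2.4.6 and pandas 2.3.3 (Python 3.11.15), and matplotlib 3.10.9 drew plots. The offset shrinks ratios of dim probes. Comparisons used probes that were well above background in 1 tissue or more on both of its arrays. Scanner files gave accessions: 23374 of 41174 probes were named through RefSeq's GRCm38.p6 table. The 48 genes had 69 probes, and 19 had more than 1. Counts cover all measured members, but 1 member's own values are not reported here. Promoters were found for 36 of 48. All arrays were on 1 slide, so no slide batch could be tested.

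Values on every array were given for called genes, for the 3 highest and 3 lowest of each comparison and for main carriers; of other lists, up to 4 called genes, otherwise the 2 brightest, of which not all are printed. Members and lists were chosen with earlier results of these data known. Alternatives were processed signals, median centring, spike-in scaling, no filter, a mean over probes, a smaller rule, leaving out each array, limma over arrays, and a difference within dye orientation.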

Additional observations from a re-analysis of the deposited data

Results flagged for a closer look

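For the brightest probe of 4 genes both core arrays were below 0 and both penumbra arrays above 0, so the ratio of ischemic over healthy tissue had opposite signs in the regions. The core ratio minus the penumbra ratio was -0.46 for Slc6a13, -0.33 for Slc6a20a, -0.27 for Slc17a8 and -0.18 for Slc6a11. The other probe of Slc17a8 had means of 0.06 (core) and -0.12 (penumbra), and that of Slc6a11 had 0.11 and -0.07, so for both genes the order of signs turns with the probe. The probes of Slc6a13 shared their signs in both regions, and Slc6a20a had 1 probe. The difference was not tested, since each region is 1 replicate. With spike-in scaling the penumbra means of Slc6a13 and Slc6a20a were -0.24 and -0.26, so the opposite signs hold only relative to the bulk of all features.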

How the results depend on the processing

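Slc17a6 was called higher between healthy pieces under each alternative run there. The member medians near 0 moved, and some changed sign. With processed signals the member median was -0.092 (core) and 0.012 (penumbra). Processed signals called 3 members between healthy pieces (Slc17a6 and Slc6a12 higher, Slc18a3 lower) and 1 between ischemic pieces (Slc6a12). Over all features they called 306 higher and 545 lower between healthy pieces, where the main settings called 78 and 204. Between ischemic pieces they called 416 higher and 621 lower, where the main settings called 110 and 227. Median centring gave medians of -0.037 in the penumbra, 0.032 for the difference between regions and 0.042 between healthy pieces. Spike-in scaling gave -0.55 (core) and -0.44 (penumbra). Without the filter on dim probes the medians were -0.034, 0.0053 and 0.041 in core, penumbra and healthy pieces, and with a mean over probes -0.035 (core) and 0.0167 (penumbra). The smaller rule called 4 members between healthy pieces, 5 between ischemic pieces and, within dye orientation (chosen after seeing the data), 1 in the difference between regions. Leaving out 1 array gave core medians of -0.069 to -0.049, penumbra medians of -0.0022 to 0.0046, and medians between healthy pieces of 0.090 to 0.13. It gave 2 calls between healthy pieces without replicate 1 or 3 (Slc17a6 and Slc6a12), where 87 features were called higher and 374 lower. In the difference it gave 1 call, Slc17a6, without core replicate 1 or penumbra replicate 4. Over all features those runs called 12 higher and 21 lower, and 13 and 16. In the ischemic ratios and their difference between regions, leaving out 1 array of a swapped pair leaves dye bias uncancelled. The cause of these shifts was not tested.

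Limma was run over the 4 arrays with a dye coefficient, at an adjusted p below 0.05 over all features. It called 15 of 36 core members (4 higher, 11 lower) and 17 of 37 penumbra members (7 higher, 10 lower). In the difference it called 4 of 36 (0 higher and 4 lower: Slc17a6, Slc1a6, Slc6a13 and Slc6a20a). Over all features it called 3877 higher and 3241 lower (core), 5387 and 5247 (penumbra) and 861 and 893 (difference). These were of at most 24527, 24924 and 24193 measured features. The dye coefficient, shared by the 4 arrays, takes up the dye bias that the 2 pairs share. The p-values therefore measure only how far that bias differed between the core pair and the penumbra pair, which may be technical. No paired analysis was possible because the labels give core replicates 1 and 2 and penumbra replicates 3 and 4, with no number in common. Signal over background limits what can be said of the 11 members measured in no comparison, and 1 replicate per region limits the rest.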
